A study of Homo sapiens with 6 samples.

Results

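The 10 genes described here carry the canonical and noncanonical NF-κB pathways, the latter being held in check by cIAP1, the ubiquitin ligase encoded by BIRC2. They are NFKB1, NFKB2, RELA, RELB, MAP3K14, TRAF2, TRAF3, NFKBIA, TNFAIP3 and CHUK, and were taken by gene symbol from a deposited table that lists transcripts of 40173 genes. All 10 were found, each under 1 Ensembl identifier, and all 10 passed the expression filter with 19987 genes in all. The cells were HCT116, a human colorectal cancer line. One group was transduced with a MOCK lentivirus and kept the label wild type, the other with a lentivirus for constitutive expression of the FLAG-fused coding region of CYGB (cytoglobin, a haem protein that binds oxygen), and both were selected with puromycin as stable lines. There were 3 libraries per group, described as biological replicates, and how many separate transductions lay behind them is not given in the sources used here, so CYGB itself and the transduced population cannot be told apart.

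In canonical NF-κB signalling, receptors such as those for TNF act through TRAF2, RIPK1 and cIAP proteins on the IκB kinase complex, which marks the inhibitor IκBα for destruction and frees dimers of p50 (from NFKB1) and p65 (RELA). In the noncanonical pathway, the kinase NIK (MAP3K14) activates IKKα (CHUK), and the NFKB2 product p100 is processed to p52, the partner of RELB. In resting cells a complex of TRAF3, TRAF2 and cIAP1 or cIAP2 keeps NIK low by degradation of the protein, a step that mRNA levels do not show. NF-κB also activates its own restraints, among them NFKBIA and TNFAIP3, and such genes carry κB elements in their promoters.

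To show which of the 10 genes carry this feedback element, the 250 bases before each RefSeq transcription start (GRCh38.p14) were searched on both strands for the decameric κB consensus. Of the members 9 had an entry, with 13 starts in all, and RELB was not searched. A match was found at 6 of the 13 starts and in 5 of the 9 genes, whereas 9.96% of all 35116 such windows and 11.8% of 27305 genes held one. The matches lay before NFKB1, NFKB2, TRAF3, NFKBIA and TNFAIP3, and none was found in these windows of RELA, MAP3K14, TRAF2 or CHUK. They are printed 5′ to 3′ on the strand of the gene, with the matched bases in capitals, because the values below are read against them.
NFKB1: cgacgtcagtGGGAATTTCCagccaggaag
NFKB2, middle start, upper match: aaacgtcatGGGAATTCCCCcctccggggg
NFKB2, middle start, lower match: gggccgagaaGGGGCTTTCCcggccctgag
NFKB2, downstream start, upper match: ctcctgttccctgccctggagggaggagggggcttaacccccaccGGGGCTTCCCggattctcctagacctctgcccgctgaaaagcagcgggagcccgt
NFKB2, downstream start, lower match: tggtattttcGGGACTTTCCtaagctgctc
TRAF3: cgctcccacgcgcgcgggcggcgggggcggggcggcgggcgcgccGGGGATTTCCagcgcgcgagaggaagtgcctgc
NFKBIA: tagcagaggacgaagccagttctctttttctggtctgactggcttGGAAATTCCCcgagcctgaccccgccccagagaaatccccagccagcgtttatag
TNFAIP3: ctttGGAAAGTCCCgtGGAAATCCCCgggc
The NFKB1 stretch lies at chr4:102501300-102501329, plus strand, with its match 49 to 40 bases before the start. The NFKB2 stretches, all on the plus strand, lie at chr10:102394462-102394491 and chr10:102394490-102394519 before the start at 102394578, and at chr10:102395484-102395583 and chr10:102395674-102395703 before the start at 102395705. The TRAF3 stretch lies at chr14:102777371-102777448, plus strand, with its match 33 to 24 bases before the start. That of NFKBIA lies at chr14:35404776-35404875, minus strand, with its match 81 to 72 bases before the start, read on the opposite strand. The TNFAIP3 stretch, at chr6:137867188-137867217 on the plus strand, holds 2 matches on the opposite strand between 67 and 46 bases before the start. The 11 capitals in the first NFKB2 line are 3 overlapping matches, and the other NFKB2 lines hold 1 match each, apart from the longest, whose 10 capitals match on both strands. Both stretches of the middle NFKB2 start and that of TNFAIP3 lie wholly within annotated exons of GENCODE 29, while those of TRAF3 and NFKBIA and the longest of NFKB2 hold no exon base. A match of letters is a description and not a measured binding site.

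Library totals over transcripts with a gene ranged from 47193496 to 53006853 counts in MOCK and from 50117465 to 53531777 counts in CYGB. CYGB checked the labels, with at most 0.661 CPM (counts scaled to a common library total after TMM) in a MOCK library and at least 545 CPM in a CYGB library. For the cell type markers, CPM were scaled to the library total without TMM. Markers of colon epithelium (7 of 7 detected, KRT8 and KRT19 the highest and VIL1 under 1 CPM) summed to 4102 to 4587 CPM in MOCK and 4121 to 4526 CPM in CYGB. Of these, EPCAM had 156 CPM in CYGB library 3 and 309 to 342 CPM in the other libraries. Markers of white blood cells summed to 19.7 to 21.5 CPM in MOCK and 10.3 to 25.4 CPM in CYGB, almost all from CD68, with PTPRC and CD3E under 1 CPM in each library. Fibroblast markers summed to 45.4 to 50.6 CPM in MOCK and 48.0 to 53.9 CPM in CYGB, almost all from COL1A1, and endothelial markers to at most 1.92 CPM.

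When transcripts were summed, none of the 10 NF-κB genes passed the test between CYGB and MOCK. By edgeR's quasi-likelihood test, 0 of 10 passed the threshold of the study's methods (unadjusted p of at most 0.01 with a ratio of at least 2 or at most 0.5), which 0.565% of all tested genes passed. Likewise 0 of 10 had an adjusted p under 0.05, against 0.055% of tested genes, and 0 of 10 had an unadjusted p under 0.05, against 4.54%. DESeq2 also gave 0 of the 10 at each of these levels. With DESeq2, 263 of 19987 tested genes passed the threshold of the methods and 6.16% had an unadjusted p under 0.05. Its share at an adjusted p under 0.05 was not computed. In 0 of 10 genes did the 3 CYGB libraries lie wholly above or below the 3 MOCK libraries, while 11% of tested genes were separated in this way. The log2 fold change (CYGB over MOCK) was positive for 7 genes and negative for 3, between -0.21 and 0.60, with a median of 0.13 against -0.01 over all tested genes. For 7 genes the 95% interval of the log2 fold change excluded a 2-fold change in either direction, and for NFKB2, RELA and TRAF2 it did not. In such bulk libraries, fewer cells expressing a gene and less RNA per cell cannot be told apart.

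**Figure D1:**
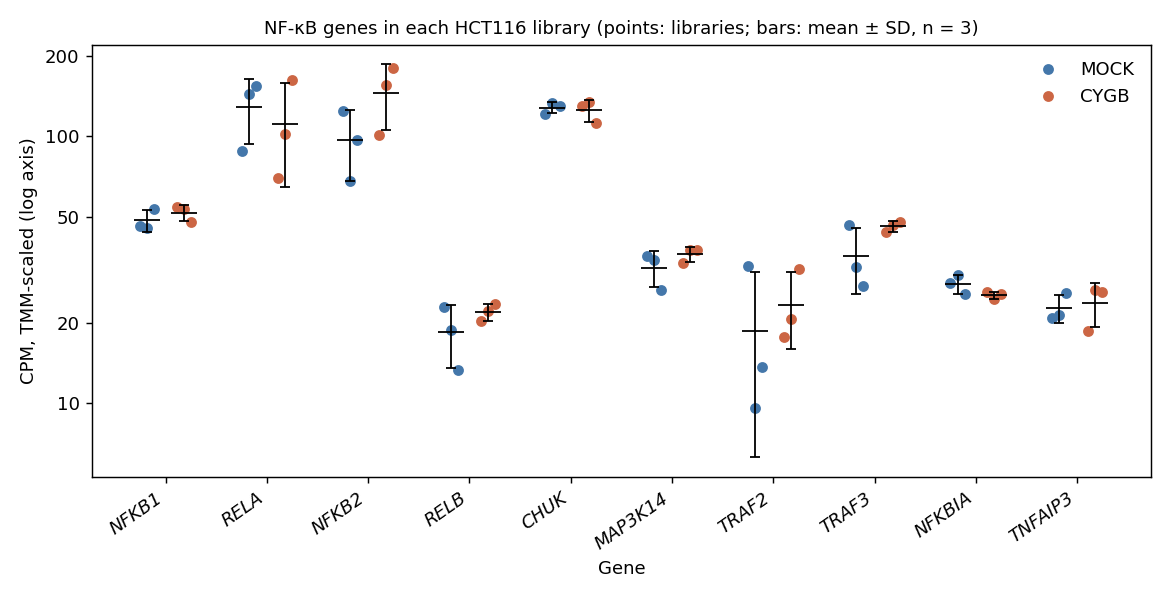
Level of each of the 10 NF-κB genes in CPM on a log axis, with a point per library (blue MOCK, orange CYGB) and bars for the mean ± SD of 3 libraries. The points of the 2 groups overlap for every gene, and the widest spread within a group on the log axis is that of TRAF2 in MOCK, from 9.52 to 32.6 CPM.

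Of the DNA-binding subunits, NFKB1 (ENSG00000109320, chromosome 4 of GRCh38 from 102501329 to 102617302), the source of p50, varied little. Its level was 46.1, 45.5 and 53.6 CPM in MOCK libraries 1 to 3 and 54.3, 53.2 and 47.9 CPM in CYGB libraries 1 to 3. The groups overlapped, and the log2 fold change was 0.10 (95% interval -0.17 to 0.37, adjusted p = 0.964 by edgeR's quasi-likelihood test). RELA (ENSG00000173039, chromosome 11 from 65653596 to 65663094), which encodes the transactivating subunit p65, had 88.2, 145 and 154 CPM in MOCK and 69.7, 102 and 162 CPM in CYGB. Each group held both low and high libraries, and the difference of -0.21 had an interval from -1.07 to 0.65. The within-group SD of RELA was 0.53 on the log2 scale, higher than in 91.9% of genes in its decile of expression.

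NFKB2 (ENSG00000077150, chromosome 10 from 102394110 to 102402529), which encodes p100, had the largest difference of the 10 genes. Its level was 125, 68.0 and 97.2 CPM in MOCK and 102, 157 and 180 CPM in CYGB. CYGB libraries 2 and 3 lay above all MOCK libraries, whereas CYGB library 1 lay within their range. The log2 fold change was 0.60 (95% interval -0.11 to 1.30, unadjusted p = 0.0856 and adjusted p = 0.963 by edgeR's quasi-likelihood test). RELB (ENSG00000104856, chromosome 19 from 45001430 to 45038198), the partner of p52, had 23.0, 18.8 and 13.3 CPM in MOCK and 20.2, 22.2 and 23.4 CPM in CYGB. MOCK library 3 was the lowest of the 6, and the log2 fold change was 0.26 (95% interval -0.27 to 0.78).

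Of the kinases, CHUK (ENSG00000213341, chromosome 10 from 100188298 to 100229619) was the steadiest. It had 122, 133 and 130 CPM in MOCK and 130, 134 and 112 CPM in CYGB, a log2 fold change of -0.03 with an interval from -0.26 to 0.20. MAP3K14 (ENSG00000006062, chromosome 17 from 45263119 to 45317145), which encodes NIK, had 35.5, 34.4 and 26.5 CPM in MOCK and 33.4, 37.3 and 37.4 CPM in CYGB. These values overlapped, with a log2 fold change of 0.17 (95% interval -0.19 to 0.52). The antisense gene MAP3K14-AS1 shares 5512 bases with MAP3K14 and had 147 to 201 counts per library, beside 1362 to 1966 counts for MAP3K14, and whether the counting used strand is not given in the sources used here.

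The adaptors of the NIK degradation complex were TRAF3 and TRAF2. TRAF3 (ENSG00000131323, chromosome 14 from 102777476 to 102911500), which binds NIK, had 46.7, 32.4 and 27.5 CPM in MOCK and 43.6, 46.4 and 47.8 CPM in CYGB. The CYGB libraries lay close together (SD 2.14 CPM, against 9.95 CPM in MOCK), and MOCK library 1 fell among them. The log2 fold change of TRAF3 was 0.37 (95% interval -0.13 to 0.87, adjusted p = 0.963 by edgeR's quasi-likelihood test), between 0.22 and 0.62 with one library left out. TRAF2 (ENSG00000127191, chromosome 9 from 136881912 to 136926607), which recruits cIAP1, had 32.6, 9.52 and 13.6 CPM in MOCK and 17.6, 20.6 and 31.9 CPM in CYGB. It spanned 3.42-fold over the 6 libraries and had the widest interval of the 10 genes, from -0.87 to 1.53 around a log2 fold change of 0.33. The value moved with single libraries, to 1.01 without MOCK library 1, 0.018 without MOCK library 2 and 0.046 without CYGB library 3.

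Both inhibitors, which are at the same time textbook NF-κB targets with a κB match in their promoters, differed little between the groups. NFKBIA (ENSG00000100906, chromosome 14 from 35401511 to 35404749), which encodes IκBα, had 28.2, 30.1 and 25.6 CPM in MOCK and 26.0, 24.6 and 25.6 CPM in CYGB. Its log2 fold change of -0.14 had an interval from -0.41 to 0.13, so that an increase beyond 1.10-fold lay outside it. The within-group SD of NFKBIA, 0.087 on the log2 scale, was lower than in all but 10.0% of genes in its decile of expression. TNFAIP3 (ENSG00000118503, chromosome 6 from 137867188 to 137883312), the ubiquitin-editing enzyme A20, had 20.9, 21.4 and 25.7 CPM in MOCK and 18.5, 26.5 and 26.0 CPM in CYGB. The log2 fold change was 0.06 (95% interval -0.38 to 0.51).

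**Figure D2:**
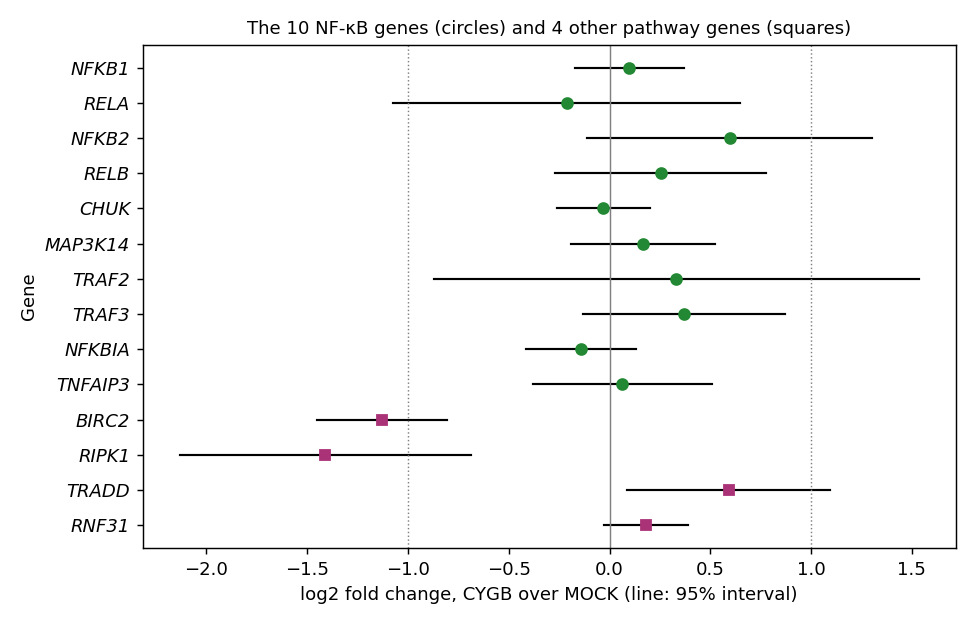
Log2 fold change (CYGB over MOCK, 3 libraries each) with its 95% interval for the 10 NF-κB genes (green circles) and for BIRC2, RIPK1, TRADD and RNF31 (purple squares), with dotted lines at a 2-fold change. All 10 NF-κB intervals hold 0, and those of BIRC2 (-1.45 to -0.81) and RIPK1 (-2.13 to -0.69) lie below it. The interval of TRADD (0.09 to 1.09) lies above 0, and that of RNF31 (-0.03 to 0.39) holds it.

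Levels were compared between genes as TPM (which also corrects for transcript length), computed over the 6 libraries with the lengths of GENCODE 29. RELA (98.3 ± 31.7 TPM, SD, n = 6), NFKB2 (87.5 ± 27.6 TPM) and CHUK (68.6 ± 5.53 TPM) were the highest. NFKBIA followed at 38.3 ± 3.61 TPM, TRAF3 at 28.9 ± 4.25 TPM and NFKB1 at 27.1 ± 2.29 TPM. TRAF2 (19.4 ± 7.47 TPM), RELB (19.1 ± 3.49 TPM) and MAP3K14 (19.1 ± 2.68 TPM) differed by less than their spread, and TNFAIP3 was the lowest at 14.3 ± 2.15 TPM. Among neighbours in this order, only CHUK and NFKBIA had ranges that did not overlap. MAP3K14 exceeded TNFAIP3 in 6 of 6 libraries although their ranges overlapped, whereas RELA exceeded NFKB2 in 3 of 6. These levels depend on how reads were divided among transcripts of different length.

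That division differed greatly between libraries. The table lists 88 transcripts of the 10 genes, of which 13 were at 0 in all libraries and 49 passed the filter and were tested. With edgeR's quasi-likelihood test, 0 of 49 passed the threshold of the methods (1.02% of all 66609 tested transcripts did, 0.54% higher and 0.482% lower in CYGB) and 0 had an adjusted p under 0.05 (0.015% did). An unadjusted p under 0.05 was reached by 4 of 49 transcripts, against 3.78% of all, and the groups did not overlap for 6 of 49, against 10.4% of all. The 4 were ENST00000189444 of NFKB2 and ENST00000221452 of RELB, described below, with 2 minor transcripts. ENST00000420009 of TNFAIP3 had 21, 33 and 34 counts across MOCK libraries and 75, 51 and 77 across CYGB libraries (log2 fold change 1.2), and ENST00000226574 of NFKB1 had 304, 338 and 143 counts against 118, 126 and 130 (-1.08). DESeq2 placed the RELB and TNFAIP3 transcripts past the threshold of the methods, the former also at an adjusted p under 0.05. The share of all transcripts that DESeq2 placed there was not computed. The same transcript held the most counts in all 6 libraries for 5 of the 10 genes, NFKB1, TRAF2, NFKBIA, TNFAIP3 and CHUK, compared with 54.6% of the 11478 genes with at least 2 tested transcripts. TRAF2 had only 1 tested transcript and is not among those 11478 genes.

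**Figure D3:**
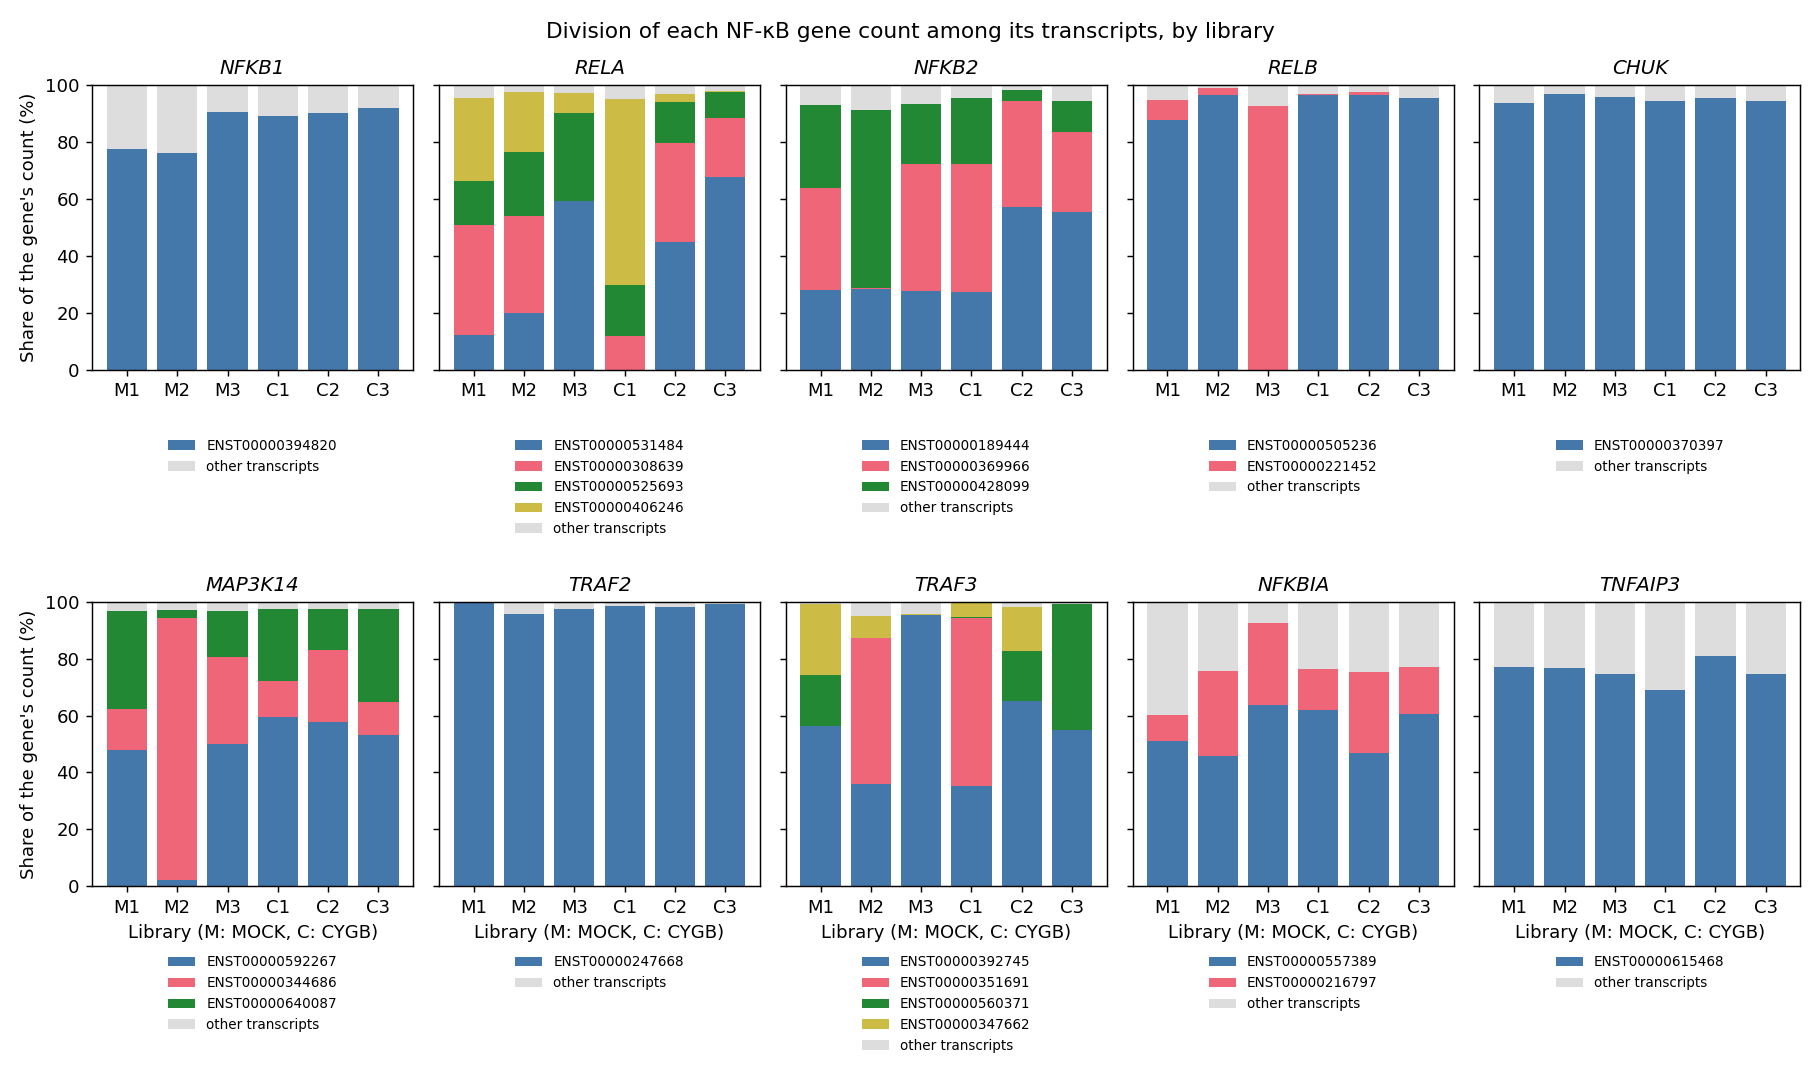
Share (%) of the count of each NF-κB gene held by each transcript in MOCK (M1 to M3) and CYGB (C1 to C3) libraries. Coloured are the 22 transcripts with at least 20% of the gene's count in any library. CHUK and TRAF2 are nearly uniform, whereas RELB in MOCK library 3 and MAP3K14 in MOCK library 2 are each held by another transcript than in the other 5 libraries.

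RELB showed the clearest exchange. ENST00000505236 had 951, 959 and 0 counts across MOCK libraries and 986, 1089 and 1172 across CYGB libraries, whereas ENST00000221452 had 77, 24 and 636 counts across MOCK libraries and 1, 10 and 1 across CYGB libraries. In MOCK library 3 the second therefore held 92.7% of the RELB count, and in the other libraries at most 7.10%. The groups of ENST00000221452 did not overlap, with a log2 fold change of -5.89 (unadjusted p = 0.0165 and adjusted p = 1.00 by edgeR's quasi-likelihood test), while the gene as a whole moved by 0.26. Of the 150-base windows of these 2 transcripts, 7.10% and 0.886% are found in no other annotated RELB transcript.

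For MAP3K14 the retained-intron transcript ENST00000592267 had 803, 42 and 679 counts across MOCK libraries and 1007, 1095 and 1048 across CYGB libraries. The protein coding transcript ENST00000344686 had 244, 1676 and 417 counts across MOCK libraries and 210, 478 and 222 across CYGB libraries. MOCK library 2 thus placed 92.1% of the MAP3K14 count on the coding transcript, against 11.3 to 30.6% in the other libraries, with a gene total of 1820 counts that was within the range of the others. The groups of ENST00000592267 did not overlap, and its log2 fold change was 1.01 (adjusted p = 1.00 by edgeR's quasi-likelihood test), against 0.17 for the summed gene.

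NFKB2 has 3 transcripts that begin at or near the 3 RefSeq starts searched above. ENST00000428099, which begins at the upstream start without a κB match (102394110), had 1736, 2243 and 1053 counts across MOCK libraries and 1192, 309 and 1036 across CYGB libraries. ENST00000369966, which begins 19 bases from the middle start, had 2120, 17 and 2229 counts across MOCK libraries and 2298, 2964 and 2664 across CYGB libraries. ENST00000189444, which begins 1 base from the downstream start, had 1648, 1015 and 1388 counts across MOCK libraries and 1407, 4549 and 5244 across CYGB libraries. The 2 CYGB libraries with a high NFKB2 level were those with a high count of ENST00000189444, which held 27.4 to 28.2% of the NFKB2 count in 4 libraries and 57.2 and 55.3% in CYGB libraries 2 and 3. Its log2 fold change was 1.44 (unadjusted p = 0.0353 and adjusted p = 1.00 by edgeR's quasi-likelihood test), and its groups overlapped. Each of its 150-base windows is also found in another annotated NFKB2 transcript.

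RELA and TRAF3 changed their leading transcript from library to library within each group. The retained-intron transcript ENST00000531484 held 12.3, 19.8 and 59.2% of the RELA count in MOCK and 0, 44.8 and 67.7% in CYGB. ENST00000406246, a protein coding transcript, held 29.1, 21.0 and 7.29% in MOCK and 65.1, 2.75 and 0.516% in CYGB. For TRAF3, ENST00000351691 had 874 counts in MOCK library 2 and 1303 counts in CYGB library 1 and was at 0 in the other 4 libraries. Its main alternative ENST00000392745 ranged from 35.3 to 95.4% of the gene. Neither of these TRAF3 transcripts has a 150-base window of its own.

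In the genes led by the same transcript in every library, the share of that transcript varied less. ENST00000370397 held 93.8 to 96.9% of the CHUK count, ENST00000247668 held 95.6 to 99.4% of that of TRAF2, ENST00000394820 held 75.9 to 91.7% of that of NFKB1, ENST00000615468 held 68.9 to 80.8% of that of TNFAIP3 and ENST00000557389 held 45.8 to 63.6% of that of NFKBIA. The spread of TRAF2 between libraries was therefore that of 1 transcript, with 1530, 481 and 681 counts across MOCK libraries and 877, 1027 and 1658 across CYGB libraries. Of its 150-base windows, 69.5% are found in no other TRAF2 transcript.

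The other genes of the pathway were examined through a list of 58 ligands, receptors, adaptors, kinases and inhibitors, of which 51 were tested. With edgeR's quasi-likelihood test 0 rose and 2 fell past the threshold of the methods, where 0.28% and 0.285% of all tested genes did, and 0 had an adjusted p under 0.05, against 0.055%. The 2 were BIRC2 and RIPK1, and with TRADD 3 of 51 had an unadjusted p under 0.05, as did 4.54% of all tested genes. The median log2 fold change of the list was -0.05, against -0.01 over all tested genes. Groups did not overlap for 3 genes with higher (CYLD, RNF31 and TRADD) and 3 with lower CYGB levels (RIPK1, BIRC2 and FBXW11), where 5.72% and 5.31% of tested genes were separated.

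BIRC2 encodes cIAP1, and had 72.5, 83.4 and 93.4 CPM in MOCK and 39.6, 34.1 and 40.4 CPM in CYGB. RIPK1, the kinase and scaffold that cIAP1 ubiquitinates at the TNF receptor, had 47.8, 35.3 and 50.5 CPM in MOCK and 20.2, 19.7 and 10.3 CPM in CYGB. Every CYGB library thus lay below every MOCK library for both genes. The log2 fold change of RIPK1 was -1.41 (95% interval -2.13 to -0.69, unadjusted p = 0.00297, adjusted p = 0.963 by edgeR's quasi-likelihood test), and that of BIRC2 was -1.13 (adjusted p = 0.18 by the same test). DESeq2 gave both an adjusted p under 0.05, and the share of all genes at this level was not computed with DESeq2. Over the gene-level alternatives (DESeq2 or edgeR's quasi-likelihood test) the adjusted p ran from 0.00639 to 0.998 for RIPK1. For BIRC2 it ran from 1.09e-08 to 0.895 by the same tests. RIPK1 no longer passed the threshold of the methods without MOCK library 1 (log2 fold change -1.36) or without MOCK library 3 (-1.31), or with the replicate number as a block (-1.45). Transcripts of both genes changed places. Those of RIPK1 were ENST00000380409 at 2209, 3 and 2558 counts in MOCK and 1 count in each CYGB library, and ENST00000259808 at 47, 1861 and 41 counts across MOCK libraries and 1022, 998 and 542 across CYGB libraries. For BIRC2, ENST00000227758 had 3390, 4356 and 4733 counts across MOCK libraries and 186, 439 and 2035 across CYGB libraries, while ENST00000532672 had 1543 counts in CYGB library 1 alone and ENST00000613397 had 962 in CYGB library 2 alone. By its most abundant tested transcript alone, neither gene passed the threshold, with a log2 fold change of 0.45 for RIPK1, the opposite direction, and -2.25 for BIRC2. The RIPK1 value is that of ENST00000259808. ENST00000380409 had more counts in total, nearly all in MOCK libraries 1 and 3, and did not pass the expression filter.

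TRADD and RNF31 were the largest differences in the other direction among well expressed genes of the list without overlap. TRADD, the adaptor that brings RIPK1 and TRAF2 to the TNF receptor, had 9.0, 8.29 and 9.50 CPM in MOCK and 10.1, 16.4 and 13.9 CPM in CYGB, a log2 fold change of 0.59 (unadjusted p = 0.0283, adjusted p = 0.963 by edgeR's quasi-likelihood test). RNF31, the catalytic subunit of the linear ubiquitin ligase, had 49.9, 48.1 and 49.5 CPM in MOCK and 58.4, 54.6 and 54.2 CPM in CYGB (log2 fold change 0.18, 95% interval -0.03 to 0.39). The 7 genes that did not pass the filter were TNF, LTA, IL1B, CD40LG, TNFSF11, TNFSF14 and NLRP12, of which all but the last encode ligands. TNF had 8, 8 and 4 counts across MOCK libraries and 4, 4 and 0 across CYGB libraries, and the other cIAP gene, BIRC3, had 1561, 1566 and 972 counts across MOCK libraries and 1273, 1162 and 1537 across CYGB libraries.

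**Figure D4:**
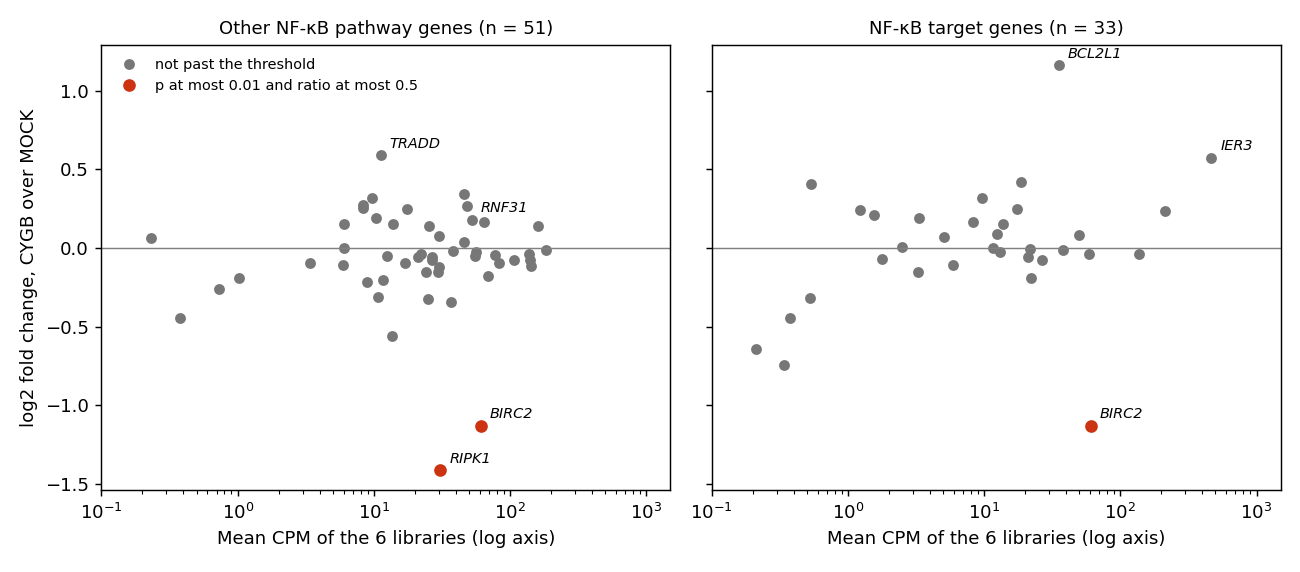
Log2 fold change (CYGB over MOCK) against the mean CPM of the 6 libraries (log axis) for 51 other pathway genes and 33 target genes, with genes past the threshold of the methods in red. BIRC2, which is in both lists, and RIPK1 are the only genes past it, and most of the others lie near 0.

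A second list held 40 genes that NF-κB is known to activate, with NFKB1, NFKB2, RELB, NFKBIA and TNFAIP3 left out. A κB match lay before 18 of the 33 list genes with a RefSeq entry (54.5%), against 11.8% of all genes. Of the 33 tested genes, 0 rose and 1 fell past the threshold of the methods by edgeR's quasi-likelihood test, the latter being BIRC2, beside 0.28% and 0.285% of all tested genes. None had an adjusted p under 0.05 by this test (0.055% of all did) and 2, BIRC2 and BCL2L1, had an unadjusted p under 0.05 (4.54% of all did). The median log2 fold change was 0.00, with 17 genes positive and 16 negative. Groups did not overlap for 1 of the 33, BIRC2, against 11% of all tested genes. BIRC2 is in the pathway list as well, and its product cIAP1 names the pathway for which the members were chosen. Its calls are therefore not separate findings of the lists.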

How the data were processed

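Values are raw, whole-number counts of paired-end reads for each transcript, which the authors deposited for the 6 libraries without normalization. The submitters' processing notes name HISAT2, DESeq2 and the build hg19, while 99.5% of the listed transcripts shared with GENCODE 29 have their GRCh38 position there, so GRCh38 positions are given. The counting tool is not given in the sources used here. Rows that name no gene took 18.6 to 19.5% of each library and were not used.

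Counts were summed per gene identifier, filtered by filterByExpr (minimum count 10), scaled by TMM and fitted in edgeR 4.0.16 (glmQLFit, glmQLFTest) in R 4.3.3 over all genes, and again per transcript, with Benjamini-Hochberg adjustment. Intervals are 95% and were computed from the quasi-likelihood F. Steps were run on simulated data with changes far larger than those of the 10 genes and the same dispersion for every feature. Such data do not show whether changes as small as theirs would be found. Alternatives were DESeq2 1.42.0, its size factors, other filters, the replicate block, inclusion of transcripts without a gene, the most abundant tested transcript, and each library left out. P-values measure only the spread between these libraries.

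The members and lists were chosen with earlier results of these data known. Named transcripts held at least 20% of their gene's count in a library, led it or passed the threshold. Named list genes passed the threshold, or were the 2 largest rises and falls without overlap at 10 CPM or more. Other names were chosen after their values were seen. Replicate numbers were not taken as pairs. Figures used matplotlib 3.10.9.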

Additional observations from a re-analysis of the deposited data

How the results depend on the processing

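No NF-κB gene passed the threshold of the methods or had an adjusted p under 0.05 in any alternative run, including DESeq2 and the replicate block. An unadjusted p under 0.05 was reached by 3 of the 10 without MOCK replicate 1 (NFKB2, TRAF2 and TRAF3, beside 3.89% of all tested genes), by 1 without CYGB replicate 1 (NFKB2, beside 4.43%) and by 1 by its most abundant transcript (NFKB2). For the last, the share over the most abundant transcripts of all genes was not computed. Of 130 log2 fold changes under alternatives, 125 kept their sign. The exceptions were RELA by its most abundant transcript (0.25) and, on dropping single libraries, RELA (-0.58 to 0.035, positive without CYGB replicate 1), TNFAIP3 (-0.026 to 0.21, negative without CYGB replicate 2 or 3) and CHUK (-0.088 to 0.045, positive without CYGB replicate 3). The number of the 10 genes without overlap was 0, and 0 to 4 on dropping single libraries (4 without MOCK replicate 1, 3 without CYGB replicate 1, 2 without MOCK replicate 3), where 19.9%, 21.5% and 23.6% of all tested genes were separated. On dropping single libraries NFKB2 ranged from 0.40 to 0.82 and RELB from 0.069 to 0.45. Transcripts of the 10 genes past the threshold numbered 0, then 2 with DESeq2 and 0 to 2 on dropping single libraries (2 without MOCK replicate 1 or CYGB replicate 1, 1 without MOCK replicate 3). The share of all tested transcripts past the threshold was not computed for these alternatives, so the transcript counts cannot be read against a background.

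Other pathway genes past the threshold numbered 2, then 1 with the replicate block and 1 to 2 on dropping single libraries (1 without MOCK replicate 1 or 3). The alternatives for RIPK1 and BIRC2 were chosen after seeing the data. By its most abundant tested transcript RIPK1 had a log2 fold change of 0.45, the opposite direction, while its transcript with the most counts was not tested. Target genes numbered 1, then 2 with DESeq2 and 1 to 2 on dropping single libraries (2 without CYGB replicate 1 or 3). All genes numbered 113, then 263 with DESeq2, 62 at a mean of at least 50 counts, 72 with unassigned transcripts included, 78 with the replicate block and 124 to 177 on dropping single libraries (177 without MOCK replicate 3). Why these counts differ was not tested. Deviations of same-numbered libraries correlated at 0.0294, 0.00521 and 0.031. The labels give these libraries only a shared number, and low correlations over all genes do not settle whether any were handled together. With 3 libraries per group, the intervals of NFKB2, RELA and TRAF2 include changes beyond 2-fold.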

Other observations

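The following genes were chosen after their values were seen. The target BCL2L1, an inhibitor of apoptosis, had 24.2, 20.4 and 20.6 CPM in MOCK and 21.5, 56.8 and 68.0 CPM in CYGB, so that, as for NFKB2, CYGB libraries 2 and 3 lay above all others and CYGB library 1 among the MOCK libraries. Its log2 fold change was 1.16 (unadjusted p = 0.0287, adjusted p = 0.963 by edgeR's quasi-likelihood test). IER3, an immediate early target, had 277, 354 and 493 CPM in MOCK and 390, 684 and 600 CPM in CYGB, again with CYGB libraries 2 and 3 the highest, and a log2 fold change of 0.58 (95% interval -0.11 to 1.26). How many of the targets or of all genes share this order of libraries was not counted. Not every target had it, as REL was highest in CYGB library 1 (25.4 CPM). IKBKG, which encodes the regulatory subunit NEMO of the IκB kinase complex and has a near-identical pseudogene copy, had 525, 627 and 644 counts across MOCK libraries and 653, 744 and 58 across CYGB libraries. CYGB library 3 stood apart for this gene, and its main transcript ENST00000617207 had 16 counts there against 365 to 672 counts in the other libraries. TNFRSF12A, the receptor of TWEAK and an activator of the noncanonical pathway, averaged 151 ± 11.4 CPM over MOCK and 167 ± 7.00 CPM over CYGB (SD, n = 3 each), with a log2 fold change of 0.14 (95% interval -0.06 to 0.34). ERLIN1, which shares 37 bases with CHUK, had 1493, 1189 and 1307 counts across MOCK libraries and 2747, 1735 and 1483 across CYGB libraries.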
